A study of Mus musculus with 9 samples.

Results

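The transcripts described here are those of 33 genes that mark T cells and natural killer (NK) cells, read in every library of a study of hematopoietic stem cell (HSC) aging. The genes were taken by symbol from a table of 56748 genes, and all 33 were found. They are 4 subunits of the T cell receptor (TCR) complex, 3 subunits of the CD4 and CD8 co-receptors, 3 proximal signaling proteins, 8 surface and costimulatory proteins, 7 transcription factors, 5 effector genes and 3 NK receptors. RNA-seq was performed on HSCs sorted from the bone marrow of female C57BL/6 mice, gated as lineage-negative, Sca1+, c-Kit+, CD48- and CD150+ cells. Young HSCs (yHSCs) came from mice of 6 to 10 weeks, and pre-aged HSCs (paHSCs) came from mice of 14 to 16 months and were split by surface P-selectin into a Selp_low and a Selp_high fraction. No group carried a transgene or received a treatment as far as the labels and methods state, and each of the 3 groups has 3 libraries. The lineage antibodies of the sort are not listed as a cocktail in the sources used here.

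T cells recognise antigen through the TCR, whose variable chains signal through the CD3 subunits and the zeta chain. The kinase LCK, bound to CD4 or CD8, phosphorylates these chains, ZAP-70 docks on them, and the adaptor LAT spreads the signal. NK cells lack a TCR and kill with granzymes and perforin under the control of receptors such as NK1.1. HSCs lie upstream of both lineages and are not known to carry a surface TCR.

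Library depth was between 24866975 and 35375310 counts. Levels are given in CPM, the depth-scaled count of a gene after edgeR's TMM factors. These factors ranged from 1.05 to 1.22 except in Selp_low replicates 2 and 3, at 0.545 and 0.785, where the leading 10 genes held 44.8% and 20.9% of all counts. Between 21094 and 34143 genes had at least 1 count, with the fewest in yHSC replicate 2 and Selp_high replicate 1. HSC transcripts were measured in every library, and 12 HSC genes summed to 1432 to 3117 CPM in yHSCs, 1259 to 1858 CPM in Selp_low paHSCs and 2904 to 3890 CPM in Selp_high paHSCs. These sums include Ly6a, which T cells also make. In Selp_low replicates 1 to 3 the sums were 1858, 1608 and 1259 CPM, of which Ly6a alone gave 635, 879 and 69.6 CPM. A count of 0 allowed up to 3 counts, or 0.0695 to 0.198 CPM depending on the library, and covers counting error only.

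T cell transcripts were abundant in Selp_low replicates 1 and 2 and scarce in Selp_low replicate 3, yHSCs and Selp_high paHSCs. The summed level of 7 T cell markers (Cd3d, Cd3e, Cd3g, Cd247, Cd4, Cd8a and Cd8b1) was 203, 524 and 5.69 CPM in Selp_low replicates 1 to 3. It was 10.1, 18.3 and 21.8 CPM in yHSCs and 8.42, 22.6 and 9.65 CPM in Selp_high paHSCs. The labelled fraction Selp_low thus held both the highest and the lowest libraries of the series for these markers. Selp_low replicates 1 and 2 were the highest libraries of all 9 for 23 of the 33 genes, whereas they were for 1657 of the 22594 genes kept after low counts were filtered out (7.33%). For 19 of the 33 genes the lower of these libraries was at least 2-fold above the highest of the other 7. The share of all genes that meet this 2-fold rule was not computed, and these libraries stand out by the levels of the same genes. These are descriptions of single libraries and were given no test.

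**Figure D1:**
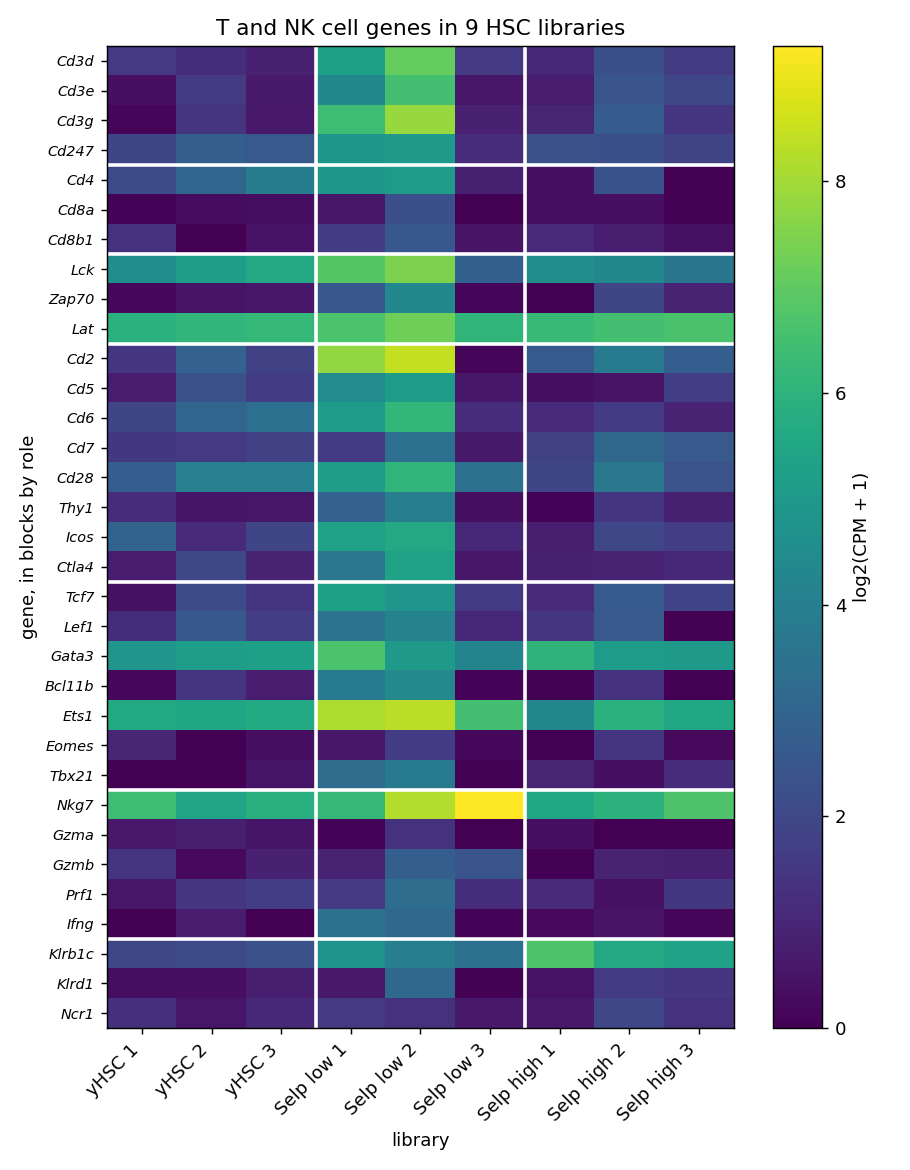
Level of each of the 33 genes, as log2(CPM + 1) in color, in the 9 libraries (columns), with genes in blocks by role and white lines between groups. Most T cell genes are bright in Selp_low replicates 1 and 2 alone, Lat, Gata3, Ets1 and Nkg7 are above 10 CPM in every library, and Klrb1c is brightest in the Selp_high libraries.

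B cell genes moved with the T cell genes in the same libraries, while plasma cell and neutrophil genes followed other orders. The summed level of 10 B cell markers was 5781, 8147 and 55.3 CPM in Selp_low replicates 1 to 3, against 106 to 318 CPM in yHSCs and 187 to 548 CPM in Selp_high paHSCs, and all 10 had Selp_low replicates 1 and 2 as the highest libraries. The summed level of 9 plasma cell genes was 16816 CPM in Selp_low replicate 1, 542429 CPM in replicate 2 and 1361 CPM in replicate 3, against 867 to 1537 CPM in yHSCs and 2941 to 23256 CPM in Selp_high paHSCs. Of these 9 genes, 2 had Selp_low replicates 1 and 2 as the highest libraries. In Selp_low replicate 3, the library low in T cell genes, 11 neutrophil genes summed to 213537 CPM, against 549 to 64942 CPM elsewhere. The part of these cells in the results below was not tested. In bulk RNA, fewer cells of a type and less RNA per cell cannot be told apart.

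**Figure D2:**
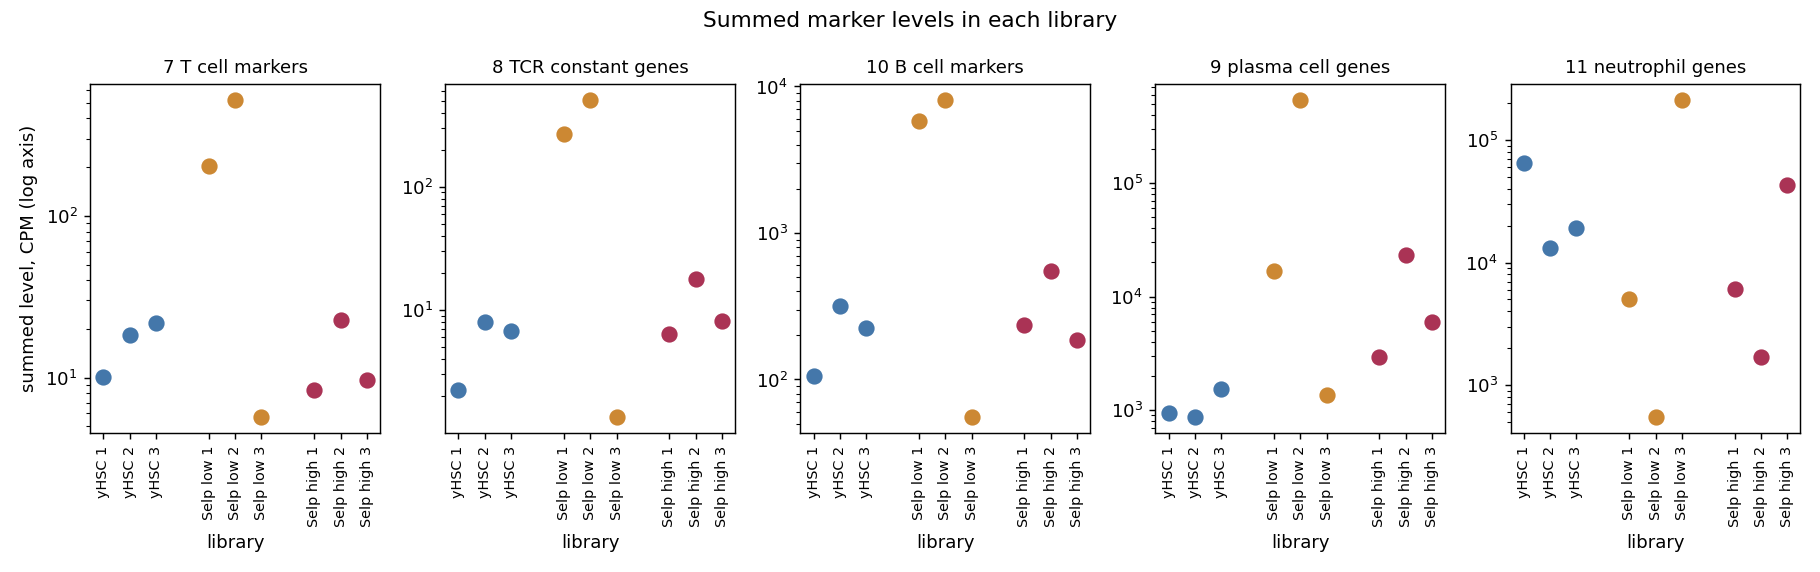
Summed level (CPM, log axis) of the markers of T cells, the constant genes of the TCR, and the markers of B cells, plasma cells and neutrophils; each point is 1 library. Selp_low replicates 1 and 2 stand highest for T and B cell lists, at 203 and 524 CPM for the T cell markers, and Selp_low replicate 3 stands lowest for these and highest for neutrophil genes, at 213537 CPM.

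Among the subunits of the TCR complex, the 3 CD3 genes lie side by side on chromosome 9. In the authors' coordinates (mm39 in the submitters' processing notes), Cd3g (ENSMUSG00000002033) spans 44880870 to 44891729 on the minus strand, Cd3d (ENSMUSG00000032094) spans 44893084 to 44898637 on the plus strand, and Cd3e (ENSMUSG00000032093) spans 44910038 to 44920925 on the minus strand. The CD3 chains carry the signaling motifs of the receptor. Cd3d was 1.93, 1.34 and 0.79 CPM in yHSCs, 38.4, 134 and 1.87 CPM in Selp_low paHSCs and 1.09, 3.84 and 2.00 CPM in Selp_high paHSCs. Cd3e was 0.30, 1.95 and 0.60 CPM in yHSCs, 19.3, 89.99 and 0.49 CPM in Selp_low paHSCs and 0.65, 4.51 and 2.98 CPM in Selp_high paHSCs. Cd3g was 0.10, 1.69 and 0.55 CPM in yHSCs, 83.7, 226 and 0.82 CPM in Selp_low paHSCs and 0.93, 5.44 and 1.63 CPM in Selp_high paHSCs. The 3 genes thus shared their high libraries, and for each the Selp_low group overlapped both other groups through replicate 3. The lower of Selp_low replicates 1 and 2 was 9.996 times the highest of the other 7 libraries for Cd3d, 4.28 times for Cd3e and 15.4 times for Cd3g.

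Cd247, the zeta chain, lies apart on chromosome 1 from 165616250 to 165704846. It was 2.84, 5.93 and 5.004 CPM in yHSCs, 29.0, 31.8 and 1.27 CPM in Selp_low paHSCs and 3.93, 3.77 and 2.69 CPM in Selp_high paHSCs. Unlike the CD3 genes it was above 1 CPM in all 9 libraries. Its interval overlaps Pou2f1 on the opposite strand, which had 258 to 1128 counts per library, and the strand setting of the counting is not given in the sources used here.

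Because the CD3 genes shared a pattern, their promoter windows are shown, 250 bases before to 50 after the start of each gene, from RefSeq on GRCm38.p6, a different build from that of the counts. Capitals mark matches, on either strand, to 5 short motifs of factors active in lymphocytes, spelled out under the sequences. The Cd3g and Cd3d windows face away from each other with 854 bases between them.
Cd3g, chr9:44980382-44980681, minus strand: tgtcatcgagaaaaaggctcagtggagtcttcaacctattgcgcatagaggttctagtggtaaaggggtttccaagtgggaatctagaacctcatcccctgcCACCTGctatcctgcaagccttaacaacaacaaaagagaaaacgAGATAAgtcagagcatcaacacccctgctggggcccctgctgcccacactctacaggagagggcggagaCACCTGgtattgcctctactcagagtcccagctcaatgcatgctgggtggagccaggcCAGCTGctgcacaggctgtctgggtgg
Cd3d, chr9:44981536-44981835, plus strand: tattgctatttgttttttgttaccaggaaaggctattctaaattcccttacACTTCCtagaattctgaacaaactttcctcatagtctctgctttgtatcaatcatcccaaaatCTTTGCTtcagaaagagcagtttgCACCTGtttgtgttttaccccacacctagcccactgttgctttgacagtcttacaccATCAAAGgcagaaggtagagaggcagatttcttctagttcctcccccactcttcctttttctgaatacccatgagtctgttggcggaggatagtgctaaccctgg
Cd3e, chr9:45009562-45009861, minus strand: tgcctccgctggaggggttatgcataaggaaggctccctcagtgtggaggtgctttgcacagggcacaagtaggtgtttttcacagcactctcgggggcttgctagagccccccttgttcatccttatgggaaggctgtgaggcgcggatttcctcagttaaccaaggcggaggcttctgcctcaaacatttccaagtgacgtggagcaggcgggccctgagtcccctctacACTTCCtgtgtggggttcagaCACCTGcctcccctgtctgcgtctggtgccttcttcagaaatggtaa

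All 3 windows held the E-box, Cd3d and Cd3e held the ETS motif, Cd3d alone of the 3 held the TCF/LEF motif and Cd3g alone the GATA motif. RefSeq windows were matched for 23 of the 33 genes, 31 windows in all. The E-box, CAGNTG, was in 83.9% of these windows and in 51.4% of all 32851 windows. The ETS motif was searched as GGAAGT and was in 41.9% of the windows of these genes against 23.8% of all. For the RUNX motif, searched as TGTGGT, the shares were 32.3% and 16.8%. The TCF/LEF motif, searched as CTTTGNT, gave 19.4% against 18.6%. The GATA motif, searched as AGATAA, gave 6.45% against 11.2%. A match describes the letters of the window and not binding.

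The antigen receptor itself followed the CD3 genes. The constant gene Trac was 74.5, 171 and 0.37 CPM in Selp_low replicates 1 to 3, between 0.60 and 1.09 CPM in yHSCs and between 2.14 and 3.62 CPM in Selp_high paHSCs. Of 8 constant genes, 6 had Selp_low replicates 1 and 2 as the highest libraries, and the 8 summed to 268, 510 and 1.35 CPM in Selp_low paHSCs, 2.23 to 8.02 CPM in yHSCs and 6.33 to 17.8 CPM in Selp_high paHSCs. The variable genes of the beta chain, of which a T cell clone uses 1 productively, were spread widely in the same libraries. Of 22 Trbv genes, 20 had more than 3 counts in both Selp_low replicate 1 and replicate 2, against 5 to 10 in the other libraries. The family had 1551 and 1676 counts in these libraries, against 113 to 263 elsewhere. The spread over genes was not separated from this difference in counts. The leading Trbv gene took 12.1% of the family's counts in Selp_low replicate 1 (Trbv16) and 23.5% in replicate 2 (Trbv13-2), against 33.6% to 55.6% elsewhere. No single Trbv gene therefore made up most of the beta chain reads in Selp_low replicates 1 and 2. Of 110 Trav genes, 54 and 51 had more than 3 counts in these libraries, against 2 to 21 elsewhere. The Trav family had 885 and 730 counts there, against 51 to 529 elsewhere. Reads of near-identical variable genes may be split between copies, so these counts are uncertain.

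Of the co-receptor genes, Cd4 marks helper and Cd8a and Cd8b1 mark cytotoxic T cells. Cd4 was 3.22, 7.16 and 14.2 CPM in yHSCs, 30.1, 33.3 and 0.82 CPM in Selp_low paHSCs and 0.31, 4.04 and 0 CPM in Selp_high paHSCs, and is the only co-receptor gene above 10 CPM in any library. Cd8a was 0.07, 0.23 and 0.27 CPM in yHSCs, 0.49, 3.76 and 0 CPM in Selp_low paHSCs and 0.31, 0.30 and 0 CPM in Selp_high paHSCs. Cd8b1 was 1.59, 0 and 0.36 CPM in yHSCs, 2.13, 4.81 and 0.41 CPM in Selp_low paHSCs and 1.21, 0.71 and 0.34 CPM in Selp_high paHSCs. Both CD8 genes were highest in Selp_low replicate 2, and each was at 0 counts in at least 1 library. Per length, in FPKM, Cd4 stood at 7.48 and 8.27 in Selp_low replicates 1 and 2, where Cd8a stood at 0.14 and 1.03 and Cd8b1 at 1.44 and 3.24.

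The proximal signaling genes differed in how far HSC libraries without a high CD3 level still contained them. Lck, the kinase that starts TCR signaling, was 23.9, 36.0 and 47.1 CPM in yHSCs, 111, 175 and 6.44 CPM in Selp_low paHSCs and 23.3, 18.9 and 11.03 CPM in Selp_high paHSCs. Lat was 59.7, 68.7 and 71.5 CPM in yHSCs, 99.4, 149 and 65.5 CPM in Selp_low paHSCs and 74.8, 90.6 and 97.4 CPM in Selp_high paHSCs. Zap70 was 0.14, 0.42 and 0.52 CPM in yHSCs, 4.75, 19.2 and 0.11 CPM in Selp_low paHSCs and 0, 2.88 and 0.89 CPM in Selp_high paHSCs. Lat was therefore at or above 59.7 CPM in every library, Lck was lowest in Selp_low replicate 3, and Zap70 was highest in Selp_low replicates 1 and 2. Per length, Lat was 21.6 to 25.8 FPKM and Lck 8.15 to 16.1 FPKM in yHSCs, against 0.44 to 1.06 FPKM for Cd3d.

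The surface and costimulatory genes mostly followed CD3. Cd2, an adhesion receptor of T and other lymphocytes, was 1.76, 6.51 and 2.52 CPM in yHSCs, 219, 338 and 0.11 CPM in Selp_low paHSCs and 5.12, 13.3 and 5.76 CPM in Selp_high paHSCs. Cd5, a dampener of antigen receptor signals, was 0.64, 3.99 and 2.16 CPM in yHSCs, 21.0, 33.3 and 0.52 CPM in Selp_low paHSCs and 0.31, 0.42 and 2.26 CPM in Selp_high paHSCs. Its relative Cd6 was 2.84, 7.05 and 9.41 CPM in yHSCs, 32.9, 69.6 and 1.27 CPM in Selp_low paHSCs and 1.19, 2.14 and 0.92 CPM in Selp_high paHSCs. All 3 were high in Selp_low replicates 1 and 2 and low in replicate 3, and the Cd6 levels of Selp_high paHSCs all lay below those of yHSCs. Cd28, the main costimulatory receptor, was 5.75, 15.3 and 15.6 CPM in yHSCs, 35.4, 66.6 and 9.70 CPM in Selp_low paHSCs and 2.84, 11.9 and 4.18 CPM in Selp_high paHSCs. Icos, a costimulator of activated T cells, was 6.70, 1.23 and 2.79 CPM in yHSCs, 39.7, 47.9 and 1.12 CPM in Selp_low paHSCs and 0.72, 2.96 and 2.18 CPM in Selp_high paHSCs. Ctla4, the inhibitory counterpart of Cd28, was 0.68, 3.06 and 0.87 CPM in yHSCs, 11.8, 39.8 and 0.52 CPM in Selp_low paHSCs and 0.83, 0.91 and 1.06 CPM in Selp_high paHSCs. These costimulators again separated Selp_low replicates 1 and 2 from the rest. Thy1 ranged from 0.05 to 14.6 CPM with the same highest libraries, while Cd7, from 0.60 to 9.42 CPM, was the only surface gene of the 8 for which Selp_low replicates 1 and 2 were not both highest.

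Of the 7 transcription factors, 5 had Selp_low replicates 1 and 2 as the highest libraries, and Ets1 and Gata3 were above 10 CPM in every library. Tcf7, the Wnt-linked factor that starts the T cell program, was 0.34, 3.41 and 1.64 CPM in yHSCs, 37.7, 27.8 and 1.95 CPM in Selp_low paHSCs and 1.21, 5.15 and 2.61 CPM in Selp_high paHSCs. Bcl11b, which fixes T cell commitment, was 0.14, 1.72 and 0.66 CPM in yHSCs, 12.7, 19.6 and 0.07 CPM in Selp_low paHSCs and 0.03, 1.58 and 0 CPM in Selp_high paHSCs. In Selp_low replicate 3 neither exceeded the highest yHSC library. Ets1, a factor of T, B and NK cells, was 48.6, 43.3 and 50.3 CPM in yHSCs, 281, 316 and 89.9 CPM in Selp_low paHSCs and 18.5, 59.9 and 46.0 CPM in Selp_high paHSCs. Unlike the CD3 genes, Ets1 was higher in all 3 Selp_low libraries than in any library of either other group. Gata3, which acts in T cells and also in HSCs, was 27.4, 34.4 and 37.7 CPM in yHSCs, 100.4, 31.4 and 17.4 CPM in Selp_low paHSCs and 64.0, 33.9 and 30.9 CPM in Selp_high paHSCs, with overlap between all groups. Lef1 ranged from 0 to 16.7 CPM and Tbx21 from 0 to 12.9 CPM, both highest in Selp_low replicate 2, and Eomes did not exceed 2.04 CPM.

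Effector genes did not share a single pattern. Nkg7, a granule protein of cytotoxic cells, was 82.2, 42.0 and 56.8 CPM in yHSCs, 71.0, 291 and 619 CPM in Selp_low paHSCs and 46.1, 60.9 and 101 CPM in Selp_high paHSCs. Its highest library was therefore Selp_low replicate 3, the library poor in CD3, where the granule genes Elane and Mpo of immature neutrophils were at 7924 and 6217 CPM and Tyrobp, an adaptor of NK and myeloid cells, at 589 CPM; their part in the Nkg7 level was not tested. Ifng, the cytokine of activated T and NK cells, was 0, 0.65 and 0 CPM in yHSCs, 9.86, 7.64 and 0.07 CPM in Selp_low paHSCs and 0.18, 0.39 and 0.11 CPM in Selp_high paHSCs. Gzmb was 1.73, 0.19 and 0.82 CPM in yHSCs, 0.92, 5.99 and 4.27 CPM in Selp_low paHSCs and 0, 0.91 and 0.74 CPM in Selp_high paHSCs. Gzma was 0.54, 0.72 and 0.44 CPM in yHSCs, 0.07, 1.58 and 0 CPM in Selp_low paHSCs and 0.31, 0 and 0 CPM in Selp_high paHSCs. Neither granzyme exceeded 5.99 CPM, and Prf1, perforin, ranged from 0.34 to 8.89 CPM with its highest level in Selp_low replicate 2. Il2rb and Ccl5, other cytotoxic genes, were also highest in that library, at 140 and 67.4 CPM. They were at 17.4 and 2.75 CPM in Selp_low replicate 1. Not all such genes were, since Gzmm was highest in Selp_high replicate 3 at 2.78 CPM and Serpinb9 in Selp_high replicate 1 at 80.5 CPM.

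NK receptors formed the group least like the TCR genes, and none of the 3 had Selp_low replicates 1 and 2 as its highest libraries. Klrb1c (ENSMUSG00000030325, chromosome 6 from 128755448 to 128766178, minus strand) encodes NK1.1, the activating receptor by which NK cells of C57BL/6 mice are recognised. It was 2.91, 3.27 and 3.94 CPM in yHSCs, 25.7, 14.8 and 9.48 CPM in Selp_low paHSCs and 102, 47.9 and 39.2 CPM in Selp_high paHSCs. The 3 groups did not overlap and stood in the order yHSC, Selp_low, Selp_high, an order without overlap found for no other of the 33 genes and for 84 of 20798 genes with a mean of at least 10 counts (0.404%). Klrd1 (CD94), a subunit of NK inhibitory and activating receptors, was 0.27, 0.30 and 0.71 CPM in yHSCs, 0.56, 7.51 and 0.04 CPM in Selp_low paHSCs and 0.36, 1.95 and 1.78 CPM in Selp_high paHSCs. Ncr1 (NKp46), a receptor largely restricted to NK cells and related innate lymphocytes, was 1.39, 0.46 and 1.04 CPM in yHSCs, 1.93, 1.58 and 0.56 CPM in Selp_low paHSCs and 0.54, 2.91 and 1.55 CPM in Selp_high paHSCs. Klrd1 and Ncr1 together came to 0.90 CPM in Selp_high replicate 1, where Klrb1c was highest. The related genes Klrb1b and Klrb1f stayed at or below 1.05 CPM and between 4.10 and 15.5 CPM, and neither had its highest level in a Selp_high library. Megakaryocyte and platelet genes were also highest in Selp_high paHSCs. The sum of 10 such genes was 559 to 993 CPM in yHSCs and 591, 1771 and 2481 CPM in Selp_low replicates 1 to 3. In Selp_high replicates 1 to 3 it was 3047, 8479 and 4965 CPM. Among the Selp_low libraries this order was the reverse of that of Klrb1c. Selp_high replicate 1, highest in Klrb1c, had the lowest sum of its group. The part of these genes in the Klrb1c difference was not tested. The Klrb1c promoter window (RefSeq, GRCm38.p6), marked as above, held 1 ETS, 1 RUNX and 1 E-box match.
Klrb1c, chr6:128788592-128788891, minus strand: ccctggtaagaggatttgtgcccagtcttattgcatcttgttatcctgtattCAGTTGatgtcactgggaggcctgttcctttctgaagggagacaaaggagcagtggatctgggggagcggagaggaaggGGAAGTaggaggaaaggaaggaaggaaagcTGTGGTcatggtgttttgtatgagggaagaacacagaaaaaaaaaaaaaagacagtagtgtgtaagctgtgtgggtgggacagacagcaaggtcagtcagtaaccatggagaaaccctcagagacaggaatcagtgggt

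**Figure D3:**
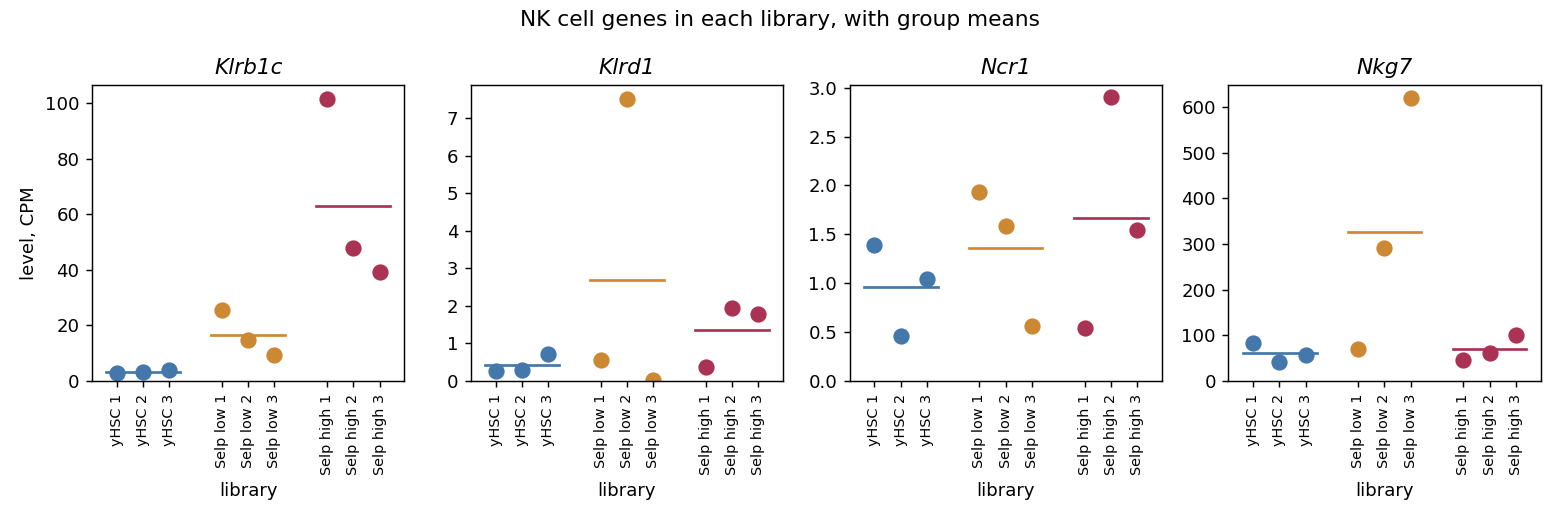
Level (CPM) of Klrb1c, Klrd1, Ncr1 and Nkg7 in each library (points), with the mean of each group as a bar. Klrb1c is ordered by group without overlap, from at most 3.94 CPM in yHSCs to at least 39.2 CPM in Selp_high paHSCs, while Ncr1 stays at or below 2.91 CPM and Nkg7 peaks in Selp_low replicate 3 at 619 CPM.

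To ask whether the fractions of paHSCs differed in these genes, Selp_high was compared with Selp_low by edgeR's quasi-likelihood test with Benjamini-Hochberg adjustment over all genes tested. A call needed an adjusted p not above 0.05 together with a change of 2-fold or more. Of the 33 genes, 32 passed the filter, and 29 had a negative and 3 a positive log2 fold change. Their median was -2.71, against -0.11 over all 20370 genes tested. None was called by edgeR, nor was any other gene (0 of 20370, 0%), although 16 of the 32 and 2555 of all genes had an unadjusted p under 0.05. Limma voom with quality weights also called 0, with 5 of the genes under an unadjusted p of 0.05. DESeq2, the tool of the study, called 11 of the 33 lower in Selp_high paHSCs, against a background of 1.66% of all genes, and called none of them higher, against 0.802%. The 11 were Cd3d, Cd3e, Cd3g, Cd5, Cd6, Cd28, Icos, Ctla4, Tcf7, Ets1 and Ifng, so they included 3 of 4 TCR subunits, 5 of 8 surface genes, 2 of 7 transcription factors and 1 of 5 effectors, and no co-receptor, signaling gene or NK receptor. The libraries did not overlap for Ets1 and Gzmb, which were lower in all Selp_high libraries (10.6% of all genes), and for Klrb1c, which was higher in all (10.3% of all genes). For Gzmb the margin was slight, 0.911 CPM in Selp_high replicate 2 against 0.918 CPM in Selp_low replicate 1. These levels came from 37 and 28 counts, so their order rests on the scaling factors. The HSC genes moved with the same groups, with 11 of 12 at a positive log2 fold change, a median of 1.43 and 10 without overlap between libraries, and their part in these differences was not tested. The study describes the libraries as biological repeats, without saying how many animals each came from. P-values here measure only the spread between these libraries, and an exact permutation test of 3 against 3 could not go below 0.1.

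The size of these differences came with wide errors. Cd3g had a log2 fold change of -5.29 (SE 1.71, adjusted p = 0.338 by edgeR and 0.0017 by DESeq2). Cd6 stood at -4.62 (SE 1.27, adjusted p = 0.338 by edgeR and 0.00106 by DESeq2), and Ets1 at -2.47 (SE 0.62, adjusted p = 0.338 by edgeR and 0.0112 by DESeq2). With Selp_low replicate 2 left out, DESeq2 called 0 of the 33 genes and 99 of all 19868. It called 5 of the 33 and 434 of all 17599 without Selp_low replicate 1, and 16 and 1268 of 23363 without Selp_low replicate 3. The counts were 3 and 412 of 23063 without Selp_high replicate 1, 16 and 2485 of 26414 without Selp_high replicate 2, and 7 and 506 of 22994 without Selp_high replicate 3, so the number over all genes moved as well, against 608 of 24680 with every library. EdgeR called Cd2, Cd6 and Cd247 lower when Selp_low replicate 3 was left out and none when any other library was. The median log2 fold change of the genes was -2.09 without Selp_low replicate 2 and -3.34 without Selp_high replicate 2. Same-numbered libraries deviated together in this comparison, with correlations from 0.199 to 0.325. Between Selp_high paHSCs and yHSCs, which share only a number, a value of -0.408 occurred, so a pairing is not established. With the replicate number as a block, edgeR still called none of the 33. DESeq2 with the block called 13 of the 33 and 2180 of all 21584 genes, against 11 and 608 of 24680 without it. Of these, 6 were among the 11 called without the block. Cd3e, Cd5, Ctla4, Icos and Tcf7 were no longer called, while Bcl11b, Cd4, Gzmb, Lef1, Nkg7 and Thy1 were called lower and Klrb1c higher. The Klrb1c difference between fractions was 1.90 (SE 0.52), with an adjusted p of 0.338 by edgeR, 0.0733 by edgeR with the block, 0.0605 by DESeq2 and 1.12e-08 by DESeq2 with the block. Scaling by library totals alone moved the median of all genes from -0.11 to 0.37. Relative to that median, the median of the 33 genes lay at -2.60 with TMM factors and at -2.37 with library totals, and Lat, Gata3 and Eomes changed sign.

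**Figure D4:**
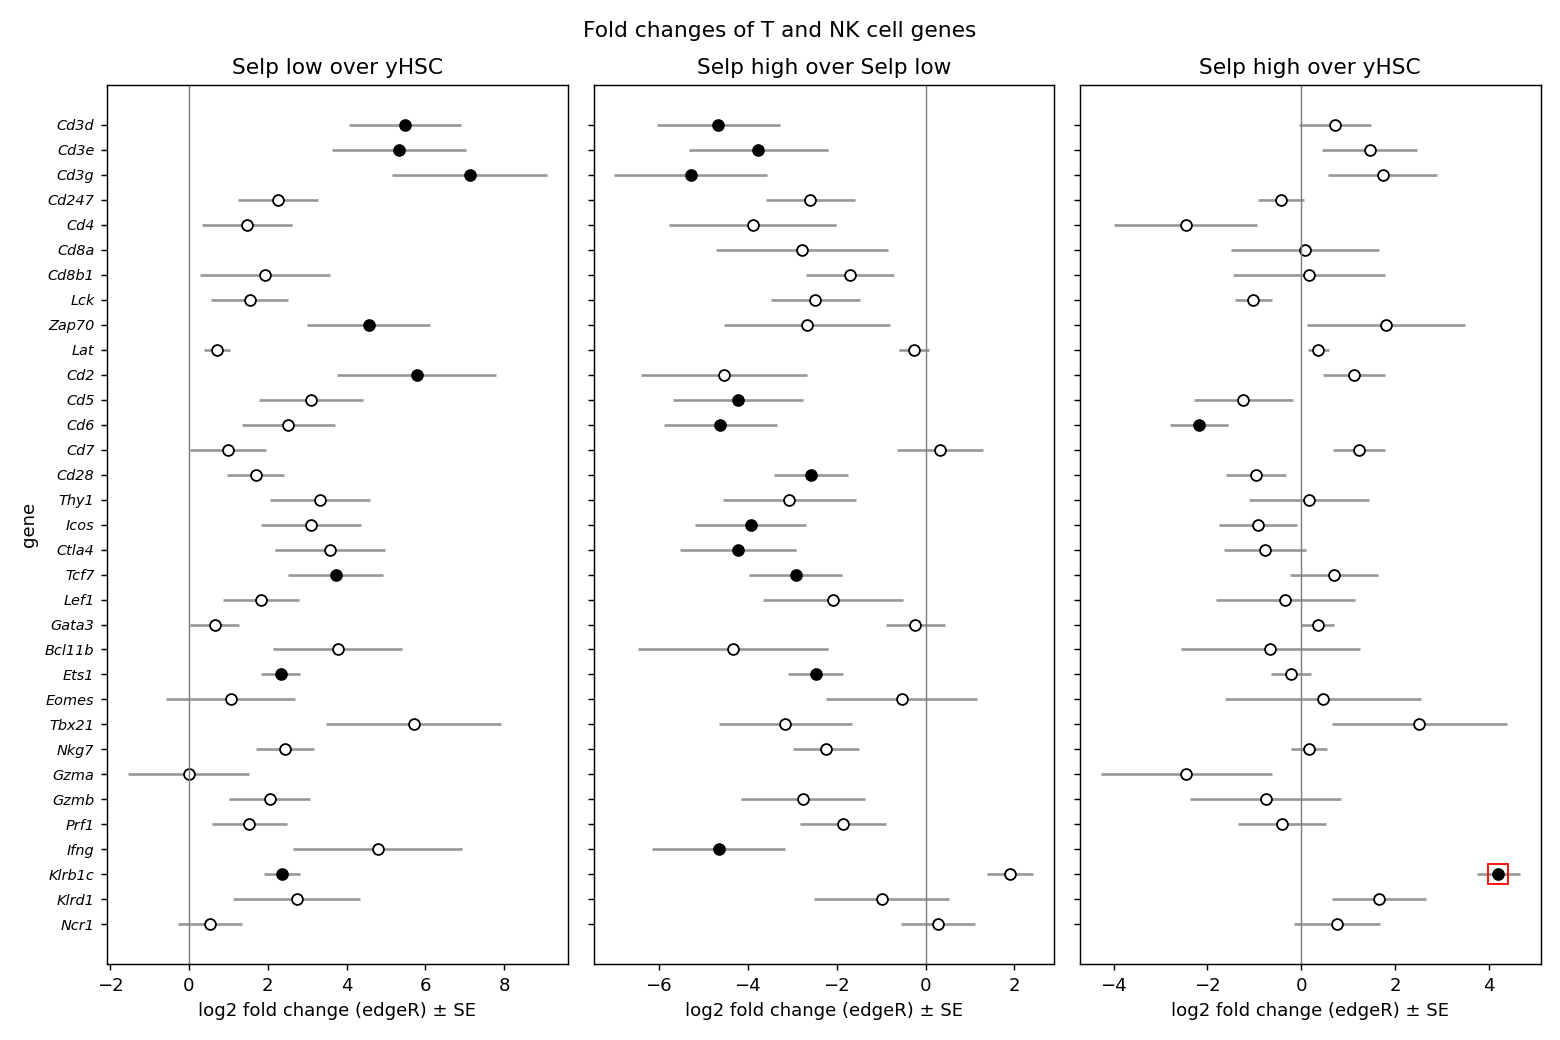
Log2 fold change (edgeR) with its SE for each gene in the 3 comparisons; filled points were called by DESeq2 and the red square marks the gene called by edgeR. Most T cell genes lie right of 0 in Selp_low over yHSC and left of 0 in Selp_high over Selp_low, the comparisons that share the Selp_low libraries, and the square is Klrb1c at 4.20 in Selp_high over yHSC.

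Selp_low paHSCs were next compared with yHSCs, the contrast of the low fraction with young cells that were not split by P-selectin. Here 31 of 32 genes tested had a positive and 1 a negative log2 fold change, with a median of 2.40 against 0.08 over all 20437 genes. EdgeR called none of the 33 and no gene at all (0 of 20437, 0%), with 13 of the 32 and 2306 of all genes under an unadjusted p of 0.05, and voom called Ets1 and Klrb1c among 431 of 20437 genes. DESeq2 called 8 of the 33 higher in Selp_low paHSCs, against 1.79% of all genes, and none lower, against 0.835%. The 8 were Cd3d, Cd3e, Cd3g, Cd2, Zap70, Tcf7, Ets1 and Klrb1c. No library overlapped between groups for Ets1 and Klrb1c, both higher (9.59% of all genes), and for none of the 33 in the lower direction (6.74%). Cd3g showed a log2 fold change of 7.12 (SE 1.96, adjusted p = 0.332 by edgeR and 5.77e-05 by DESeq2), while Ets1 showed 2.33 (SE 0.49, adjusted p = 0.332 by edgeR and 0.00797 by DESeq2). Klrb1c reached 2.36 (SE 0.45, adjusted p = 0.332 by edgeR and 0.00226 by DESeq2) and was called by DESeq2 with each of the 6 libraries left out in turn. Of the 12 HSC genes, 9 had a negative log2 fold change in this comparison, with a median of -0.92, while Ly6a, which encodes Sca-1 and is also made by T cells, was 635, 879 and 69.6 CPM in Selp_low paHSCs against 144 to 188 CPM in yHSCs. DESeq2 called 2 of the 33, Cd3g and Klrb1c, and 137 of all 17576 genes without Selp_low replicate 2. It called 4 of the 33 and 150 of all 17833 without yHSC replicate 3, and 21 and 1557 of 21037 without Selp_low replicate 3, against 8 and 516 of 19634 with every library. Without Selp_low replicate 3 edgeR called Cd2, Cd3d and Ets1 higher. Library totals in place of TMM moved the median of all genes to -0.47, and the median of the 33 genes relative to it from 2.32 to 2.22.

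The last comparison set Selp_high paHSCs against yHSCs. Of 32 genes tested, 18 had a positive and 14 a negative log2 fold change, with a median of 0.16 against -0.03 over all 20017 genes. EdgeR called 1 of them, against 0.165% of all genes. This was Klrb1c, with a log2 fold change of 4.20 (SE 0.46, adjusted p = 0.0265 by edgeR and 6.64e-17 by DESeq2). The group means were 3.37 ± 0.52 CPM in yHSCs and 62.9 ± 33.8 CPM in Selp_high paHSCs (SD, n = 3). Its edgeR call was kept without Selp_high replicate 1 (adjusted p = 0.0307 by edgeR) and was lost without any other single library, with adjusted p by edgeR between 0.0664 without Selp_high replicate 3 and 0.231 without yHSC replicate 3, while the log2 fold change stayed between 3.66 and 4.47 and DESeq2 called it each time. DESeq2 called Klrb1c higher (background 2.05%) and Cd6 lower (background 1.2%). Cd6 had a log2 fold change of -2.18 (SE 0.63, adjusted p = 0.368 by edgeR and 0.017 by DESeq2), and its DESeq2 call was lost without yHSC replicate 2 or 3 or Selp_high replicate 1 or 3. Libraries did not overlap for Klrb1c and Lat, which were higher in Selp_high paHSCs (8.52% of all genes), and for Lck, Cd6 and Gzma, which were lower (5.28%). The Lat difference was 0.36 (SE 0.22, adjusted p = 0.855 by edgeR) and that of Lck was -1.02 (SE 0.39, adjusted p = 0.58 by edgeR). The CD3 genes had log2 fold changes of 0.72 (SE 0.77) for Cd3d, 1.46 (SE 1.02) for Cd3e and 1.73 (SE 1.16) for Cd3g, with adjusted p of 0.885 or more by edgeR.

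Other genes of the T cell pathway were counted in the same comparisons. Of 8 TCR constant genes, DESeq2 called 4 lower in Selp_high than in Selp_low paHSCs, against 1.66% of all genes. It called 5 higher in Selp_low paHSCs than in yHSCs, against 1.79% of all genes, and edgeR called none. Trac had log2 fold changes of -4.92 (SE 1.63) and 6.55 (SE 1.79) in these comparisons. Its DESeq2 call in Selp_high over Selp_low was lost without Selp_low replicate 1 or 2 or Selp_high replicate 1. Of 24 further genes of TCR signaling, DESeq2 called 6 lower (1.66% of all genes) and 0 higher (0.802%) in Selp_high over Selp_low paHSCs. Their median log2 fold change by edgeR was -0.91. In Selp_low paHSCs over yHSCs it called 4 higher (1.79% of all genes) and 0 lower (0.835%), with a median of 0.82. Sh2d1a, an adaptor of SLAM family receptors, was called lower in the first, with a log2 fold change of -3.83 (SE 1.11, adjusted p = 0.0059 by DESeq2 and 0.338 by edgeR). Rasgrp1, which activates RAS after TCR engagement, was called higher in the second, at 3.49 (SE 1.13, adjusted p = 0.0276 by DESeq2 and 0.348 by edgeR). In Selp_high paHSCs over yHSCs, 5 of the 8 constant genes and 23 of the 24 signaling genes were tested. Neither edgeR nor DESeq2 called any of them, and 0 of the 5 and 1 of the 23 had an unadjusted p under 0.05 by edgeR. The constant genes Trac, Trbc2 and Trgc2 were higher in every Selp_high library than in any yHSC library (8.52% of all genes). For Trac the lowest Selp_high and highest yHSC levels were 2.14 and 1.09 CPM. They were 2.35 and 2.06 CPM for Trbc2 and 0.49 and 0.30 CPM for Trgc2. Trac had a log2 fold change of 1.53 (SE 0.67).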

How the data were processed

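Read counts per gene were deposited by the authors as whole numbers without normalization; the study's methods name fastp for trimming, and the submitters' processing notes list HISAT2 2.2.1, featureCounts 2.0.6 and mm39. No source used here states the strand setting or the treatment of multi-mapping reads. RNA came from sorted HSCs and was amplified with an ultra-low-input kit, so duplicated molecules cannot be recognised. The table held 0 unused columns of per-sample values.

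Each pair of groups was fitted in R 4.3.3 with edgeR 4.0.16 (TMM, filterByExpr, legacy quasi-likelihood test) and adjusted over all genes tested. DESeq2 1.42.0, the study's tool, and limma 3.58.1 (voom) were alternatives, as were other factors, filters, 1 fit of all 9 libraries, a replicate block and each library left out. The newer edgeR setting, DESeq2 with the block and DESeq2 with libraries left out were added after seeing the data. The SE is the log2 fold change over the root of F. FPKM used the deposited gene length and served only to compare genes. Figures were drawn with matplotlib 3.10.9, and the steps were tested on simulated data.

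The genes and lists were chosen with earlier results of these data known. Values in every library are given for T and NK markers, for genes called by edgeR or DESeq2, for genes whose libraries did not overlap and for genes with a group mean above 10 CPM. Of related lists at most the 3 genes with the largest change are named by rule, and others (Elane, Mpo, Tyrobp, Il2rb, Ccl5, Gzmm, Serpinb9, Klrb1b, Klrb1f, Ly6a, Pou2f1 and the variable genes) after their values were seen.

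Pairing by replicate number was judged from the correlation of same-numbered libraries' deviations from their group means. Between the paHSC fractions this was 0.199, 0.320 and 0.325, each over the limit of 0.1. Against yHSCs it lay between -0.408 and 0.0874, so there the libraries share only a number. Since such libraries reached values of that size, the limit does not establish a pairing between the fractions. A result on a further gene is not reported here.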

Additional observations from a re-analysis of the deposited data

How the results depend on the processing

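Counts of called genes depended on the tool and the filter, and the direction of the median of the 33 genes did not change between Selp_low and either other group. Without a filter on low counts, edgeR called 4 of the 33 genes and 193 of all genes in Selp_high over Selp_low, 472 of all genes in Selp_high over yHSC, and 8 and 365 in Selp_low over yHSC. DESeq2 called 11, 2 and 8 of the 33 genes in these comparisons and 608, 607 and 516 of all genes. Voom with quality weights called 275 genes in Selp_high over yHSC, and 2 of the 33 and 431 of all genes in Selp_low over yHSC. In Selp_high over yHSC, 1 fit of all 9 libraries called 19 genes and the newer edgeR setting 92, against 33. RLE and upper-quartile factors, library totals and a mean of at least 10 counts left every count of called genes within 1.5 times.

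With the replicate block, edgeR called 9 genes in Selp_high over Selp_low, none of them among the 33, and in Selp_high over yHSC it called 0 of the 33 and 0 of all genes, against 1 and 33 without it. DESeq2 with the block called 13, 3 and 7 of the 33 genes and 2180, 651 and 417 of all genes. The cause of these differences between tools was not tested.

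Leaving out 1 library at a time, edgeR called 0 to 3 of the 33 genes in Selp_high over Selp_low, 0 to 1 in Selp_high over yHSC and 0 to 3 in Selp_low over yHSC, and 0 to 50, 0 to 36 and 0 to 118 of all genes. The 50 and the 118 came without Selp_low replicate 3, where 0 were called with it. In Selp_high over yHSC no gene was called without yHSC replicate 2 or 3 or Selp_high replicate 2 or 3. DESeq2 called 0 to 16, 1 to 4 and 2 to 21 of the 33 genes, and 99 to 2485, 360 to 839 and 137 to 2712 of all genes. The median of the 33 genes in Selp_high over yHSC, 0.16, was -0.28 with the edgeR block. For 10 genes that stayed at or below 10 CPM in every library, depth limits what could be seen.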

Other observations

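Of 17 genes of T cell progenitors and Notch signaling, 2 had Selp_low replicates 1 and 2 as the highest libraries (11.8%, against 7.33% of all genes). In Selp_high paHSCs over yHSCs, DESeq2 called 2 of them lower (1.2% of all genes) and 1 higher (2.05%). EdgeR called none of them, with 4 under an unadjusted p of 0.05. Satb1, a chromatin organiser of lymphoid progenitors, was 33.6, 61.2 and 90.2 CPM in yHSCs, 54.5, 55.9 and 21.0 CPM in Selp_low paHSCs and 5.55, 7.73 and 13.9 CPM in Selp_high paHSCs, lower in every Selp_high library than in any other.

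Among 28 further genes of NK cells, innate lymphocytes and cytotoxic cells, 6 had Selp_low replicates 1 and 2 as the highest libraries (21.4%). Cd226, an activating receptor of NK and T cells that platelets also carry, was 25.7, 304 and 5.15 CPM in Selp_high paHSCs, 6.16, 23.6 and 0.79 CPM in Selp_low paHSCs and 0.30, 1.67 and 4.78 CPM in yHSCs. Its log2 fold change in Selp_high paHSCs over yHSCs was 5.67 (SE 1.67, adjusted p = 0.383 by edgeR and 0.0134 by DESeq2), and 1 library, Selp_high replicate 2, held most of it, as it did of the platelet genes, at 8479 CPM in sum.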
